A study of Mus musculus with 6 samples.

Results

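Circle hot-spot genes were host genes that gave rise to 15 or more different circRNAs in mouse cortex. They were chosen by the number of circRNAs listed for them: every circRNA with exactly 1 host gene was counted, and a gene entered when its count reached 15. This gave 56 host genes of 3469 (1.61%) and 1110 circRNAs of the 11171 in the deposited table (9.94%), of which 10273 had a single host gene. The number of circRNAs, and with it the level of a host, chose the genes, so both are given below as a description. The group labels were not used in the choice, but circRNAs listed in any of the 6 libraries were counted. Of the 1110, 384 were detected in 1 library only, and TLE replicate 3 held the most, with 676 detected. The choice can thus bear on the sums and shares compared between the groups below. Percentages of hot-spot hosts and circRNAs set beside those of all carry no test.

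The cortex of 3 Control and 3 TLE mice was sequenced as total RNA depleted of ribosomal RNA, with 1 library per mouse. All mice were C57BL/6 males (C57BL/6J in the study's methods), 6 weeks old, and no genetic alteration is named for them. TLE mice, a chemical model of temporal lobe epilepsy, received pilocarpine after scopolamine, had Status Epilepticus that was ended with diazepam, and were sampled 24 h later; Control mice received saline. Each library is a mixture of all cortical cells, so fewer cells of a type and less circRNA per cell cannot be told apart. Among marker genes of cortical cell types, 5 of 9 neuronal markers (among them Syt1, Rbfox3, Rbfox1 and Grin2b) and 1 of 6 astrocytic markers (Slc1a2) were listed as circRNA hosts, and 0 of 6 oligodendrocytic, 0 of 5 microglial and 0 of 6 endothelial markers were.

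A circRNA forms when the end of an exon is spliced back to the start of an exon that lies upstream of it, which closes the exons in between into a covalent ring. The splice site at the upstream exon, the acceptor, is called the start of the circle here, and the splice site at the downstream exon, the donor, is called its end, both in the direction of transcription. A gene can give several circles when an acceptor is joined to different donors or a donor to different acceptors, which is known as alternative back-splicing. Long genes with many exons and long introns, common among synaptic and neuronal genes, are known for it. CircRNA levels are given in SRPBM, the number of reads across the back-spliced junction normalised to the mapped reads of the library, which needs no division by length.

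The back-spliced junctions of the most abundant circle of the 7 hosts with the most circRNAs are shown first, because these circles carry the largest part of each host's signal. The lower-case letters are the last 15 bases of the exon at the end of the circle, and the capitals are the first 15 bases of the exon at its start; the junction lies between them. The letters were read 5′ to 3′ from the GENCODE M21 transcripts, and coordinates are on mm10.
Dgki mmu_circ_0008680, minus strand, chr6:37029763-37058028: tccatgaatcccgagAACTCCCTGAAGGCT
Nbea mmu_circ_0006818, minus strand, chr3:56079859-56091120: ggacctggttataagCTGGTTGGTGGGGAA
Rims2 mmu_circ_0002836, plus strand, chr15:39566943-39616510: aactcagccaaaccgGTGCTATGGATATAG
Rere mmu_circ_0007306, plus strand, chr4:150439343-150477468: caaccctgagacaagGTCCACAGCTCCCAG
Adgrb3 mmu_circ_0005197, minus strand, chr1:25221760-25228547: cagacacacaataagGAACGAGTCTTTGGG
Agtpbp1 mmu_circ_0002028, minus strand, chr13:59512324-59544451: gcttgccgcctgaagATTATCTGCAATGCT
Ptk2 mmu_circ_0002931, minus strand, chr15:73257034-73268893: aaaagctcagctcagGAGAATCCAGCTTTG

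The shared start that gives a hot spot its many circles is shown for Strbp, an RNA-binding protein with double-stranded RNA-binding domains. In all 5 junctions below the capitals are the same 15 bases, the start at position 37647285 on chromosome 2 (minus strand), and only the exon end in lower case changes.
Strbp mmu_circ_0006129, 833 junction reads: tctcagtattcaaagGTGTATTCCAGAGAA
Strbp mmu_circ_0006137, 150 junction reads: ttactgataaagaagGTGTATTCCAGAGAA
Strbp mmu_circ_0006141, 132 junction reads: cctattcagattcagGTGTATTCCAGAGAA
Strbp mmu_circ_0006138, 51 junction reads: gccaaatggttccagGTGTATTCCAGAGAA
Strbp mmu_circ_0006140, 47 junction reads: agaagaaggatggagGTGTATTCCAGAGAA

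The opposite arrangement, a shared end, is shown for Rims2, a scaffold protein of the presynaptic active zone. In these 4 junctions the lower-case bases are the same exon end, at position 39616510 on chromosome 15 (plus strand), and the capitals change with the exon at the start.
Rims2 mmu_circ_0002836, starting at exon 20, 860 junction reads: aactcagccaaaccgGTGCTATGGATATAG
Rims2 mmu_circ_0002837, starting at exon 21, 228 junction reads: aactcagccaaaccgTATCGCTCAGGATGG
Rims2 mmu_circ_0002816, starting at exon 6, 17 junction reads: aactcagccaaaccgAAAACGAAGTCCATC
Rims2 mmu_circ_0002833, starting at exon 18, 9 junction reads: aactcagccaaaccgGGATTGTGAAGCAGC

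The most circles came from Dgki (ENSMUSG00000038665), a diacylglycerol kinase that turns diacylglycerol into phosphatidic acid, with 44 circRNAs. Nbea, a BEACH-domain protein of membrane trafficking, had 39, Rims2 had 31, and Rere, a transcriptional corepressor of the atrophin family, and Adgrb3, an adhesion G-protein coupled receptor, had 29 each. Agtpbp1, a carboxypeptidase that shortens polyglutamate chains of tubulin, had 27, and Ptk2, the focal adhesion kinase, had 26. The median hot-spot host had 18 circRNAs and the median of all single hosts was 2. At the limit of the rule, 13 hosts had exactly 15 circRNAs and a further 13 had 14. The summed SRPBM over the 6 libraries lay between 1875 and 12900 in the former, with a median of 3330, and between 606 and 6747 in the latter, with a median of 1545. The median share of the most abundant circle was 46.0% in the former and 40.9% in the latter.

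By signal, the leading hosts were Dtnb, a dystrobrevin of the dystrophin-associated complex, with 20254 SRPBM summed over the 6 libraries, Anks1b, a protein of the postsynaptic density, with 16436, Rims2 with 14522, and Ttc3, a ubiquitin ligase, with 13339. The lowest sum was 1068 SRPBM in Tenm4, a teneurin adhesion protein. Thus a host could reach 15 circRNAs with a small or a large signal, and 19 of the 56 were among the 56 single hosts with the highest sums.

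**Figure D1:**
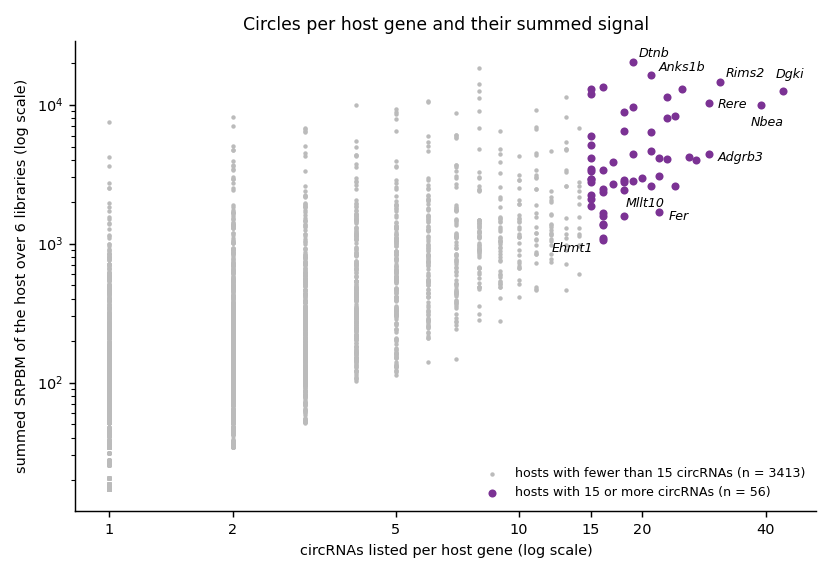
Number of circRNAs per host gene (x axis, log scale) against the host's SRPBM summed over the 6 libraries (y axis, log scale), 1 point per single host gene. The 56 hot-spot hosts (purple) span sums from 1068 to 20254 SRPBM, and hosts with fewer circRNAs (grey) reach into the same range.

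The hot-spot genes were long. Their median length in the annotation was 273 kb, from 90.9 to 2058 kb, against 80.6 kb for the hosts with fewer than 15 circRNAs. They lay on 20 chromosomes. Of their circRNAs, 1023 (92.2%) had both ends on annotated exon boundaries, and 1011 could be placed on 1 transcript that holds both ends. The placed circles spanned a median of 5 exons and 695 nucleotides of exon, and 20 of them (1.98%) were a single exon. In the 569 hosts with 5 to 14 circRNAs the medians were 5 exons and 651 nucleotides. These values count every annotated exon between the ends of a circle. Which of these exons a circle keeps was not measured. The genomic distance between the ends had a median of 34.8 kb in hot-spot hosts and 19.9 kb in the hosts with 5 to 14 circRNAs. The intron before the start had a median of 12.4 kb against 9.29 kb, and the intron after the end 11.1 kb against 8.59 kb.

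The bases at the ends, read on the transcribed strand, are given beside those of all exons of these genes, which include the ends of the circles. The last 2 bases of the exon were AG at 299 of 545 distinct ends of hot-spot circles (54.9%), against 56.3% of the 1966 exon ends before the last exon in the same genes. The first base of the exon was G at 187 of 457 distinct starts (40.9%), against 44.8% of the 1928 exon starts after the first exon.

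Starts and ends were reused extensively. The 1110 circRNAs used 495 distinct starts and 573 distinct ends, or 2.24 circRNAs per start and 1.94 per end. A start in common with another circle of the host was found in 874 circRNAs (78.7%), an end in common in 813 (73.2%), and both in 629 (56.7%). Only 52 circRNAs (4.68%) shared neither end. Sharing is mutual between circles of a host, so these percentages are given without intervals. In the hosts with 5 to 14 circRNAs a start was shared by 62.1% and an end by 55.2% of 4187 circRNAs, but a host with more circles has more chances to share an end, so these shares follow from the choice of hosts and carry no test. If every start of a host were joined to every end that lies beyond it, 3451 circles would be possible; the 1110 listed are 32.2% of these.

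Starts were reused more than ends in most hosts. In 33 hosts there were fewer distinct starts than ends, in 16 more, and in 7 the numbers were equal. The tilt was not particular to hot-spot hosts. Among the 569 hosts with 5 to 14 circRNAs, 286 had fewer starts than ends, 164 had more and 119 had equal numbers. The most-used start of a host took part in a median of 27.3% of its circles and carried a median of 45.8% of its SRPBM. For the most-used end these medians were 20.8% and 19.97%. Where sites of a host were used equally often, the one at the lowest coordinate was taken. The values for most-used starts and ends depend on that choice. The most abundant circle of the host, called the dominant circle below, used the most-used start in 32 of 56 hosts and the most-used end in 16; in 6 hosts it used both and in 14 neither.

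The hosts with the most circles drew on many sites. Dgki joined 12 starts to 16 ends, with 9 circRNAs at the acceptor of exon 6 and 9 at the donor of exon 29. Nbea joined 14 starts to 16 ends, with 8 circRNAs at the acceptor of exon 2 and 7 at the donor of exon 38. Rims2 had 16 starts and 11 ends, the reverse proportion, and the shared end printed above was the most used, with 10 circRNAs. Rere had 10 starts and 8 ends, Adgrb3 13 and 13, and Agtpbp1 11 and 11. Ptk2 had 9 starts and 17 ends, with 7 circRNAs at the acceptor of exon 2. The largest host therefore did not have the most concentrated ends: the most-used start took 9 of 44 circRNAs in Dgki and 11 of 15 in Strbp.

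The largest part of a host's circles at 1 start was in Strbp, where 11 of 15 circRNAs began at the acceptor shown above. In Stag1, a subunit of the cohesin ring, 11 of 21 circRNAs began at 1 acceptor, and in Myo9a, an unconventional myosin, 9 of 18. Ptpn4, a cytosolic tyrosine phosphatase, had 9 of 18 at the acceptor of exon 6, and Atp9b, a P4-type ATPase, had 8 of 16. Tasp1, the protease taspase 1, had 11 of 24. The shared start of Strbp carried between 96.2 and 98.9% of the host's SRPBM in the 3 Control libraries. For Stag1, Myo9a and Ptpn4 it was between 54.3 and 76.3%, for Atp9b between 83.6 and 93.6% and for Tasp1 between 85.2 and 89.5%, so in these hosts the shared start carried most of the signal as well as many of the circles.

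The most-used start was the acceptor of exon 2, the first acceptor that a transcript has, in 20 of 56 hosts, among them Nbea, Rere, Tasp1, Stag1 and Strbp. Exons were numbered on a transcript that holds both ends of a circle, which can differ between circles of a host. In Nav3, also among the 20, this exon 2 lay downstream of the exon 3 of the most abundant circle. Over all placed circles, 166 of 1011 (16.4%) began at exon 2, against 23.1% of 3799 in the hosts with 5 to 14 circRNAs. Hosts with more circles use more starts, so these percentages too depend on the choice of hosts and carry no test. The largest parts at 1 end were smaller. Stau2, a double-stranded RNA-binding protein of dendritic mRNA transport, had 5 of 16 circRNAs at 1 end, Ash1l, a histone methyltransferase, 6 of 17, Rims2 10 of 31, Atrnl1, an attractin-like membrane protein, 6 of 19, and Adgrl3, a latrophilin adhesion receptor, 5 of 18. In Rims2, 2 of the 10 circles at the shared end, mmu_circ_0002834 and mmu_circ_0002835, had starts at 39555065 and 39555068, which are 3 bases apart.

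**Figure D2:**
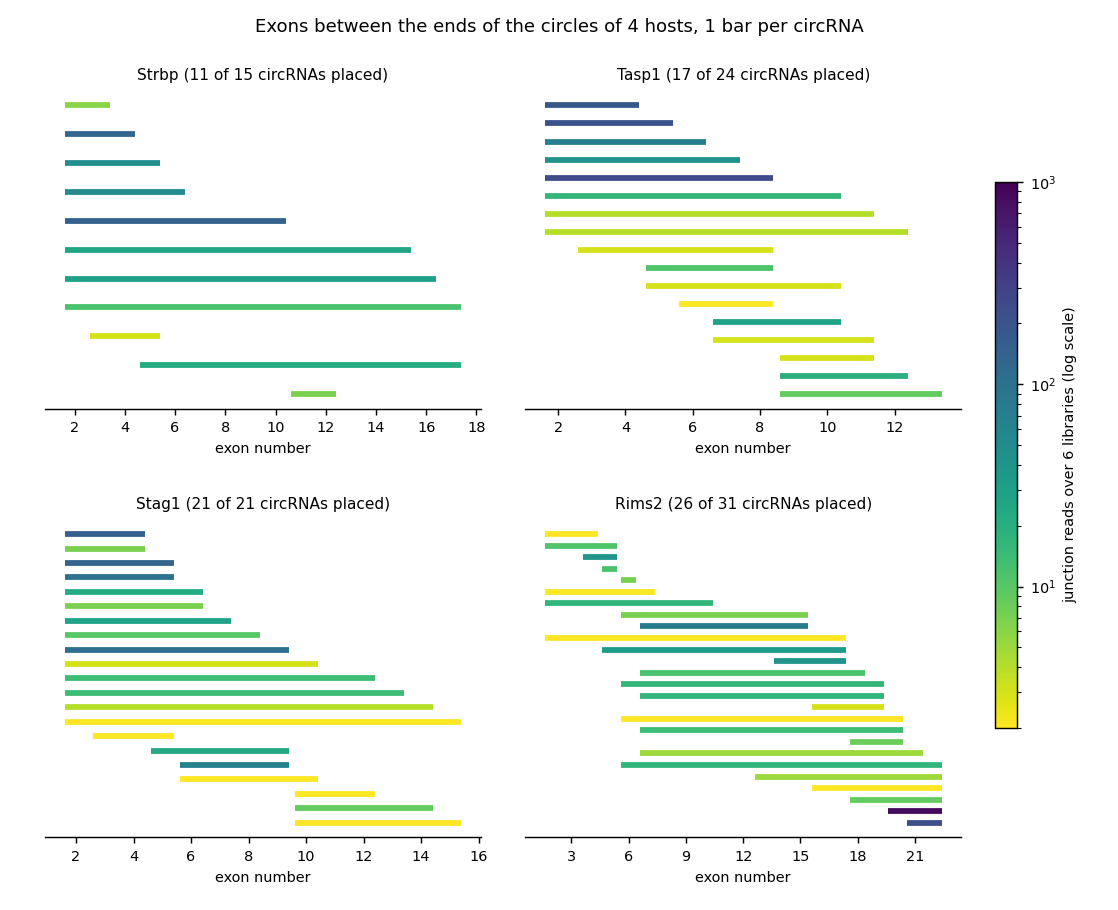
Exons spanned by each circRNA of Strbp, Tasp1, Stag1 and Rims2 that could be placed on a transcript, 1 bar per circRNA from its first to its last exon (x axis, exon number), coloured by its junction reads over the 6 libraries on a log scale. Strbp, Tasp1 and Stag1 show bars fanning out from exon 2, and Rims2 shows bars ending together at exon 22. The dominant circle of Strbp is not drawn, because no transcript holds both of its ends, and exon 2 of Stag1 has more than 1 acceptor, since its transcripts differ.

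The share of the dominant circle in the SRPBM of its host ranged from 16.3% in Mllt10, a cofactor of the histone methyltransferase Dot1l, to 79.1% in Dtnb. The median was 32.8%, with quartiles of 26.3 and 46.2%. It was at least 50% in 8 hosts and under 20% in 6. The median in hosts with 5 to 14 circRNAs was 45.7%, but the number of circles chose the hosts and bears on the share, so the difference carries no test. Hot-spot hosts thus ran from genes with 1 leading circle among many rare ones to genes in which the signal was spread widely.

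The 5 hosts with the highest shares were Dtnb, Strbp (62.5%), Zmym4, a zinc finger protein (61.3%), Dlgap1, a scaffold of the postsynaptic density (61.3%), and Ttc3 (57.2%). In Dtnb the share was 81.1, 78.4 and 78.4% in Control and 76.9, 79.0 and 80.0% in TLE. The dominant circle of Dtnb, mmu_circ_0001375, spans exons 5 to 8. The groups overlapped, and the 4.19 points between the lowest and the highest library were the smallest range of the 56 hosts. In Dlgap1 it was 60.2, 62.0 and 59.1% in Control and 64.5, 57.6 and 64.1% in TLE.

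The 5 lowest shares were in Mllt10, Fer, a cytosolic tyrosine kinase (16.8%), Agtpbp1 (17.0%), Mlip, a protein that binds lamin A (17.9%), and Ubn2, a ubinuclein of a histone chaperone complex (18.9%). In these hosts no circle led throughout: the dominant circle of Mllt10, Fer and Agtpbp1 was the highest circle of the host in 2 of 6 libraries, and that of Mlip and Ubn2 in 3. Over the 56 hosts, the dominant circle led in all 6 libraries in 32, in 5 libraries in 4, in 4 libraries in 10 and in 3 or fewer in 10.

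In the hosts with the most circles the dominant circle mostly led throughout but held less than 50% of the signal, except in Rims2. The share in Rims2 (exons 20 to 22) was 56.7, 45.5 and 58.5% in Control and 54.5, 47.0 and 58.3% in TLE. In Nbea (exons 2 to 8) it was 44.6, 40.8 and 44.5% in Control and 54.0, 49.2 and 41.2% in TLE. Both genes had the same leading circle in all 6 libraries, and in both the groups overlapped. In Ptk2 (exons 18 to 23) it was 28.2, 43.9 and 40.5% in Control and 29.6, 31.5 and 39.8% in TLE. Adgrb3 (exons 18 to 20) gave 28.3, 37.0 and 17.6% in Control and 34.3, 25.9 and 25% in TLE. Both of these also overlapped between the groups. Rere (exons 4 to 7) had a lower share, 18.8, 18.2 and 16% in Control and 25.5, 17.9 and 20.7% in TLE, although 1 circle led in all 6 libraries. Agtpbp1 (exons 2 to 11) lay at 32.8, 11.4 and 14.3% in Control and 14.8, 21.4 and 8% in TLE, and no circle led throughout.

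The hosts with a high share were not alike in how steady it was. In Strbp it was 76.6, 63.0 and 63.6% in Control and 54.7, 63.8 and 57.1% in TLE, and the exact permutation test, two-sided, gave p = 0.3. In Zmym4, with 155 junction reads in all against 1328 in Strbp, it was 62.5, 72.7 and 55.2% in Control and 76.9, 69.2 and 39.4% in TLE. In Ttc3 it was 59.6, 54.1 and 56.7% in Control and 54.0, 62.2 and 56.6% in TLE, and in Anks1b 51.5, 47.9 and 47.2% in Control and 45.8, 51.1 and 52.9% in TLE. The groups overlapped in all 4.

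**Figure D3:**
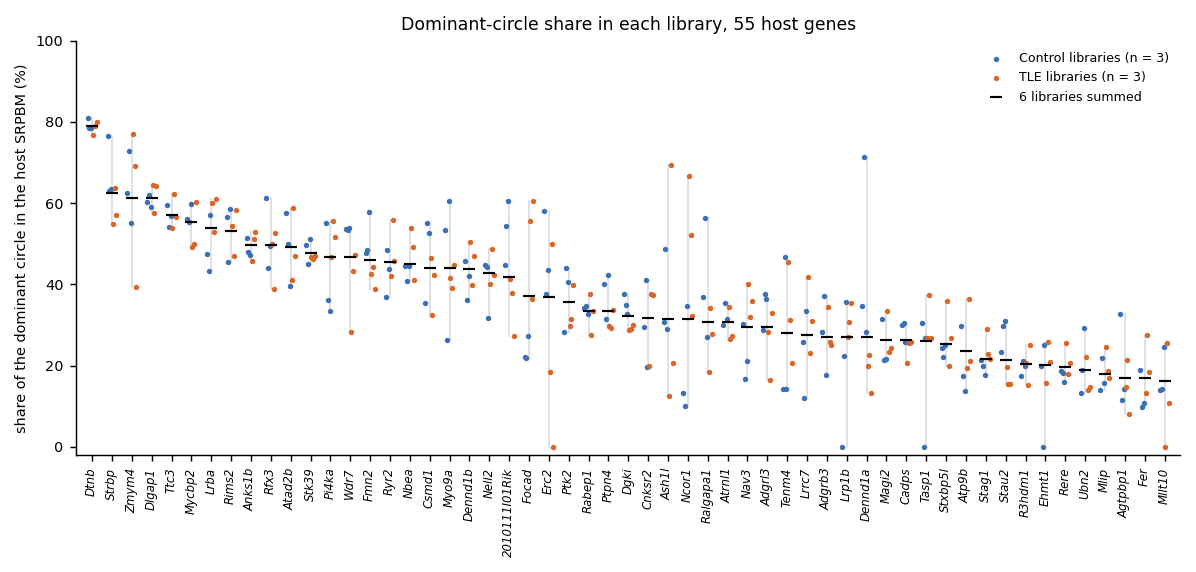
Share of the dominant circle in the summed SRPBM of its host (y axis, %) for 55 hot-spot hosts, ordered by the share over the 6 libraries together (black dash), with 1 point per library (Control blue, TLE orange). The shares fall from 79.1% in Dtnb to 16.3% in Mllt10, the points of the groups mix in most hosts, and 5 points lie at 0.

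Of the 336 library values, 5 were listed at 0, all in dominant circles read in the other libraries. The dominant circle of Tasp1, mmu_circ_0005752, had 35, 0 and 41 junction reads in Control and 32, 81 and 54 in TLE. Its value in Control replicate 2 was 0 of 118 junction reads of the host, which allows a share of up to 2.54%, while the other libraries lay between 26.7 and 37.3%. That of Lrp1b, a receptor of the low-density lipoprotein receptor family, had 0, 13 and 20 reads in Control and 14, 16 and 29 in TLE. The others were Erc2, an active zone protein (TLE replicate 3, 0 of 25 reads, up to 12%), Mllt10 (TLE replicate 1, 0 of 13 reads, up to 23.1%) and Ehmt1, a histone methyltransferase (Control replicate 2, 0 of 8 reads, up to 37.5%). A single library at 0 in this way moves the mean of its group, and each result that rests on such a value is given with that library named. These limits set 3 reads against the reads of the host. Like all intervals here, they cover counting error only. A circle with 1 read would also be listed at 0, so the shares could lie above these limits.

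The depth behind a share varied widely. A host had between 8 and 519 junction reads in a library, with a median of 69, and the 95% Wilson interval of a share had a median width of 20.5 percentage points. A library held between 32504 (TLE replicate 1) and 56516 (TLE replicate 3) junction reads in all, taking the step of the deposited values as 1 read. Hot-spot circRNAs made up 13.6% ± 0.101 (SD, n = 3) of the total SRPBM in Control and 13.6% ± 0.307 (SD, n = 3) in TLE. Of the 1110 circRNAs, 384 (34.6%) were detected in 1 library and 223 (20.1%) in all 6. In Control 530, 520 and 524 of them were detected, and in TLE 489, 580 and 676, so the groups overlapped. After thinning to the reads of TLE replicate 1 the numbers were 469, 494 and 464 in Control and 489, 493 and 508 in TLE.

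Whether the share of the dominant circle shifted between Control and TLE was tested with limma on the log2 ratio of the dominant circle to all other circles of the host, over 1047 hosts with at least 2 circRNAs and reads in every library. After Benjamini-Hochberg adjustment 0 of 56 hot-spot hosts had an adjusted p under 0.05, as had 0% of all hosts tested; the smallest adjusted p was 0.781. At an unadjusted p under 0.05 the share was higher in TLE in 2 hosts (3.57%; 1.81% of all hosts tested) and lower in 3 (5.36%; 3.15% of all). The mean share was above Control in 28 hosts and below it in 28, with a median difference of 0.339 percentage points. The median size of the difference, in either direction, was 4.79 points. The share over all 56 hosts had a median of 34.6% ± 2.35 (SD over 3 libraries) in Control and 35.3% ± 1.78 in TLE.

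In 3 hosts every TLE share lay above every Control share (5.36%, where 4.2% of all hosts tested did so), and in 7 every TLE share lay below (12.5%, where 4.87% of all did so). With 3 libraries against 3, the two-sided exact permutation test cannot give less than p = 0.1, and it gave p = 0.1 in each of these 10. After thinning to the shallowest library, 4 hosts lay above and 7 below, and of these 1 (Focad) and 5 (2010111I01Rik, Dennd1a, Fmn2, Stau2 and Wdr7) were among the 10.

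The dominant circles of hosts whose shares did not overlap, and of Ptpn4, whose shares did, are joined as follows, to show which exon ends and starts the shares below refer to.
Focad mmu_circ_0007582, plus strand, chr4:88121270-88154741: tatatattctatcagAAACTGTGCATAAAC
Nav3 mmu_circ_0000045, minus strand, chr10:110216702-110217110: gaagaccagaagaagGTATATAGGAGTACT
Dennd1a mmu_circ_0006146, minus strand, chr2:37936619-38003474: ctgaaaattgagccaTTGACGGCCTGCATC
2010111I01Rik mmu_circ_0002040, plus strand, chr13:63061035-63068285: tctgggaatggccagGATACATGAGCTGGC
Stau2 mmu_circ_0004955, minus strand, chr1:16389821-16509408: aaaacaatagtaaagTTTTGTGGAGCTGTG
Fmn2 mmu_circ_0005022, plus strand, chr1:174608382-174612651: acaaaggccaaacaaGAAGTTTTCGATGTG
Ptpn4 mmu_circ_0004707, minus strand, chr1:119741355-119765922: gaatacttttctgtgGTATCAGTACTTTTT

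Focad, a focal adhesion protein, had the largest upward shift without overlap. Its dominant circle, exons 2 to 5, held 22.2, 21.9 and 27.3% of the host's SRPBM in Control and 55.6, 36.4 and 60.4% in TLE. The mean was 23.8% ± 3.02 (SD, n = 3) in Control and 50.8% ± 12.7 in TLE. The log2 ratio to the other circles differed by 1.53 (standard error 0.52; limma, unadjusted p = 0.0105, adjusted p = 0.781). The shares rest on between 18 and 48 junction reads of the host per library, so the intervals of single libraries are wide, from 46.3 to 73.0% in TLE replicate 3 and from 11.7 to 38.1% in Control replicate 1. The summed SRPBM of Focad was 308, 298 and 379 in Control and 186, 289 and 415 in TLE, with groups that overlapped. A circle of exons 12 to 15, mmu_circ_0007590, had 7, 4 and 5 reads in Control and 0 in each TLE library.

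The share of Nav3, a microtubule-associated neuron navigator, was 30.3, 16.7 and 21.1% in Control and 40%, 31.9% and 36.0% in TLE, without overlap (log2 ratio 0.82; limma, unadjusted p = 0.109). This circle led in 4 of 6 libraries, and with the dominant circle taken from the Control libraries alone the difference reversed to -0.70 (limma, unadjusted p = 0.188). Its dominant circle is a single exon, exon 3, of 409 nucleotides. In Stag1 the shares were 21.4, 19.8 and 17.7% in Control and 29.0, 22.8 and 21.6% in TLE (limma, unadjusted p = 0.259), and the highest Control and the lowest TLE library nearly met. The dominant circle of Stag1 also led in 4 of 6 libraries.

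Ncor1, a nuclear receptor corepressor, had the largest mean difference of the share upward but its groups overlapped, with 13.3, 10 and 34.8% in Control and 66.7, 52.2 and 32.3% in TLE. The log2 ratio differed by 1.85 (standard error 0.66; limma, unadjusted p = 0.0141, adjusted p = 0.781). The host had between 15 and 31 junction reads per library. Without Control replicate 2 the difference was 1.49 (unadjusted p = 0.0682), and without TLE replicate 1 it was 1.44 (unadjusted p = 0.0675).

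Among the hosts with a lower share in TLE, the largest mean difference was in Dennd1a, an exchange factor for the GTPase Rab35. The shares were 34.6, 71.4 and 28.2% in Control and 20, 22.5 and 13.3% in TLE, with no overlap, and the circle led in 4 of 6 libraries. The highest value, in Control replicate 2, came from 10 of 14 reads (95% Wilson interval 45.4 to 88.3%). The log2 ratio differed by -1.51 (standard error 0.64; limma, unadjusted p = 0.0334, adjusted p = 0.869); without Control replicate 2 it differed by -0.84 (unadjusted p = 0.162).

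In 2010111I01Rik the dominant circle of exons 3 to 4 held 44.7, 54.3 and 60.4% in Control and 41.4, 37.9 and 27.3% in TLE. Its own level was 145, 177 and 250 SRPBM in Control and 124, 289 and 182 SRPBM in TLE, and these overlapped. A circle of exons 5 to 9, mmu_circ_0002044, lay at 17.1, 37.2 and 17.2 SRPBM in Control and 62.0, 123 and 130 SRPBM in TLE, without overlap. In TLE replicate 1 the dominant circle was at its lowest level of the 6 libraries.

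Wdr7, a WD-repeat protein that binds the vacuolar proton pump, had shares of 53.6, 53.3 and 53.8% in Control, the narrowest group of the 10, and 28.2, 43.2 and 47.2% in TLE. In Stau2 the values were 23.3, 29.6 and 31.0% in Control and 19.6, 15.4 and 15.4% in TLE, but its dominant circle led in only 2 of 6 libraries. Fmn2, a formin that nucleates actin filaments, had 47.8, 48.4 and 57.8% in Control and 42.5, 44.2 and 38.8% in TLE. The unadjusted limma p was 0.0895 for Wdr7, 0.0709 for Stau2 and 0.142 for Fmn2.

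Dgki, the host with the most circles and the best covered of the 10, had shares of 37.6, 34.9 and 32.6% in Control and 28.7, 28.9 and 30.1% in TLE. The means were 35.0% ± 2.53 and 29.2% ± 0.753 (SD, n = 3), a difference of -5.84 percentage points on 150 to 296 host reads per library. The log2 ratio differed by -0.38, with a 95% interval from -0.88 to 0.13 (limma, unadjusted p = 0.130). Its dominant circle, exons 9 to 15, led in all 6 libraries, and the next circle, mmu_circ_0008651 of exons 23 to 29, held between 4.52 and 8.71%. The summed SRPBM of the gene was 2453, 1757 and 1904 in Control and 1549, 2367 and 2561 in TLE, so the level of the host overlapped between the groups. Cadps, a priming factor of dense-core vesicles, was the other host whose shares lay lower without overlap, with 29.9, 30.5 and 25.9% in Control and 20.6, 25.5 and 25.9% in TLE, where the nearest Control and TLE values are alike to 1 decimal.

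Erc2 passed an unadjusted p under 0.05 (limma, unadjusted p = 0.0488, adjusted p = 0.869) with shares of 58.1, 37.5 and 43.5% in Control and 18.5, 50 and 0% in TLE, which overlap. Without TLE replicate 3, the library at 0, the difference was -0.74 (unadjusted p = 0.302). Tasp1 differed by 1.67 (unadjusted p = 0.0840), and by 0.09 without Control replicate 2, the library at 0 (unadjusted p = 0.795).

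**Figure D4:**
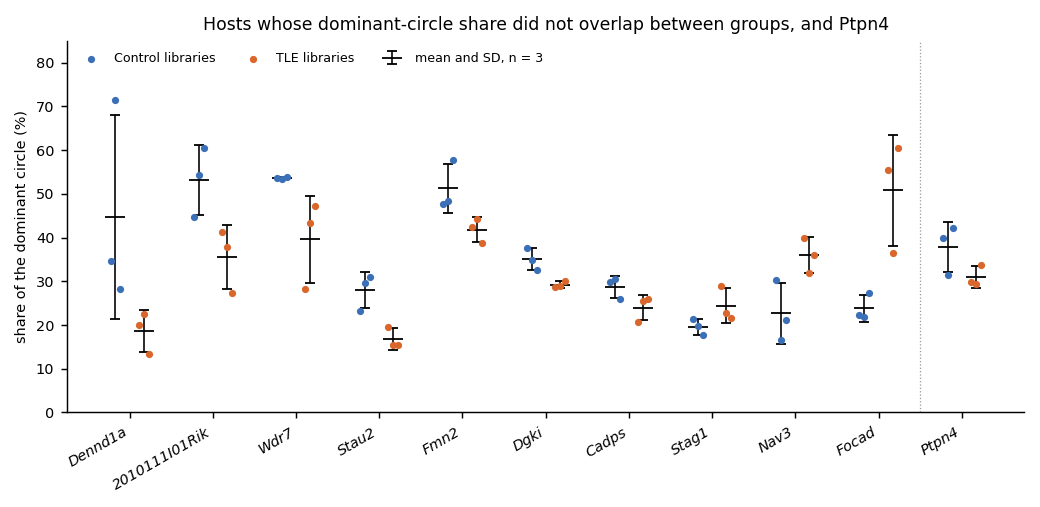
Share of the dominant circle (y axis, %) in each Control (blue) and TLE (orange) library for the 10 hosts whose shares did not overlap between the groups, ordered by the difference of the means, and for Ptpn4 (right of the dotted line); dashes and bars give the mean and SD, n = 3. Dennd1a to Cadps lie lower in TLE and Stag1, Nav3 and Focad higher, with the widest gap of means in Focad and Dennd1a and the best covered shares in Dgki.

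The level of each host, as the sum of SRPBM over its circles, was compared in the same way. All 56 hot-spot hosts were tested among 2157 hosts. After adjustment 0 had an adjusted p under 0.05 in limma (0% of all), and the smallest adjusted p was 0.728. Without adjustment, 6 had a p under 0.05 and were higher in TLE (10.7%; 5.29% of all hosts tested) and 0 were lower (0.881% of all). The log2 fold change was above 0 in 43 of 56, with a median of 0.23, and the median over all hosts was 0.20. With all libraries scaled to an equal total, these medians were 0.00 and 0.02, 28 of 56 were above 0, and 3 hosts were higher and 2 lower at an unadjusted p under 0.05. In 5 hosts all TLE sums exceeded all Control sums (8.93%; 10.7% of all), and in 0 all were lower (1.95% of all).

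The 6 hosts were Ptpn4, Adgrb3, Ralgapa1, a GTPase-activating protein for Ral, Lrrc7, a scaffold of the postsynaptic density, Tasp1 and Rims2. Ptpn4 had the smallest p. Its summed SRPBM was 256, 325 and 388 in Control and 589, 658 and 666 in TLE, with no overlap and with a log2 fold change of 0.96 (standard error 0.26; limma, unadjusted p = 0.00151, adjusted p = 0.728). Adgrb3 had 393, 502 and 732 SRPBM in Control and 692, 1017 and 1108 in TLE, which overlap (log2 fold change 0.79, standard error 0.27, unadjusted p = 0.00865). Without TLE replicate 1 its log2 fold change was 0.99 with an adjusted p = 0.0285 (limma), the only adjusted call of a hot-spot host sum with any library left out. Rims2 had 1795, 2083 and 2119 SRPBM in Control and 2427, 3191 and 2907 in TLE without overlap (log2 fold change 0.50, standard error 0.20, unadjusted p = 0.0192).

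The hosts with the smallest p among those lower in TLE overlapped between the groups. They were Mllt10 (log2 fold change -0.31, unadjusted p = 0.456), Ncor1 (-0.23, unadjusted p = 0.478) and Nbea (-0.14, unadjusted p = 0.537), in limma. With all libraries scaled to an equal total the difference of Nbea was -0.37 (limma, unadjusted p = 0.0103, adjusted p = 0.865). The 4 hosts with the highest signal differed by 0.15 (Dtnb), 0.40 (Anks1b), 0.50 (Rims2) and 0.18 (Ttc3). Of these only Rims2 had groups without overlap.

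**Figure D5:**
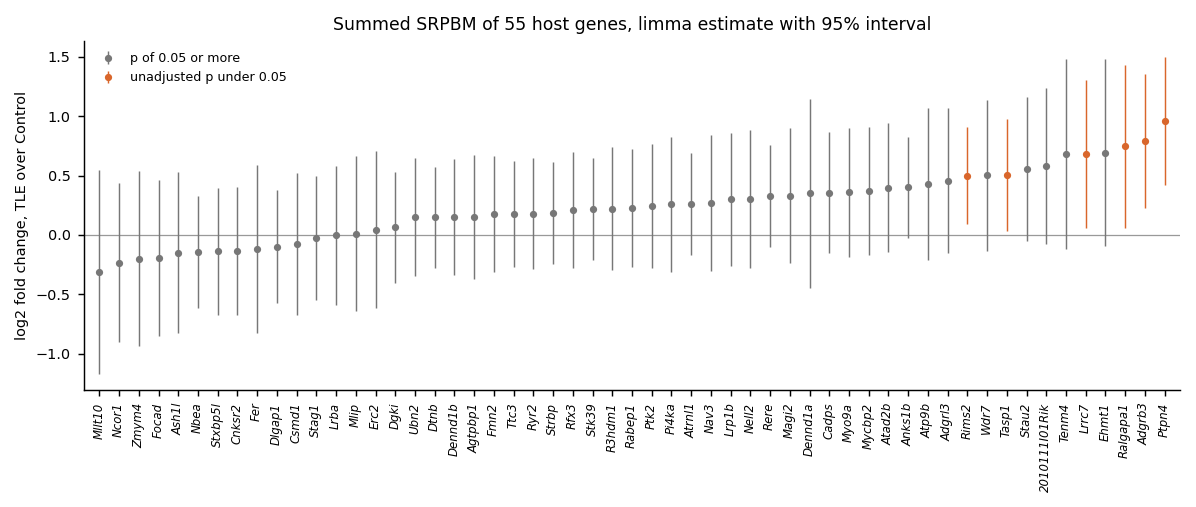
Log2 fold change of the summed SRPBM, TLE over Control, for 55 hot-spot hosts (points, limma estimate; bars, 95% interval), ordered by size. The 6 hosts with an unadjusted p under 0.05 (orange) all lie above 0, and none passed adjustment over the 2157 hosts tested.

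The circles of Ptpn4, the host with the smallest p for the sum, are given next. Its dominant circle, exons 6 to 10, lay at 103, 102 and 164 SRPBM in Control and 176, 193 and 225 in TLE. Its share was 40, 31.4 and 42.2% in Control and 29.8, 29.3 and 33.8% in TLE, which overlap (two-sided exact permutation test, p = 0.2). The threshold used in the study was 1.5 on the log2 scale in either direction and a p under 0.05, taken here without adjustment. The dominant circle did not pass it, and 3 other circles of the gene did. These were mmu_circ_0004709 (exons 3 to 8; 0 in each Control library, 4, 6 and 10 junction reads in TLE), mmu_circ_0004696 (exons 6 to 18; 2, 0 and 0 reads in Control, 8, 9 and 5 in TLE) and mmu_circ_0004692 (exons 6 to 26; 4, 0 and 0 reads in Control, 5, 4 and 10 in TLE). The last 2 begin at the acceptor that the dominant circle uses, and mmu_circ_0004709 does not. Their log2 fold changes were 2.13, 1.95 and 1.54 with an adjusted p of 0.838, 0.838 and 0.843 in limma. The identifier mmu_circ_0004696 is also that of the circle which the study follows up. The study describes that circle with fewer exons and an end further upstream. In the deposited values, every circle at the acceptor of exon 6 ended at exon 10 or further downstream. Whether the circle listed here is the one that the study describes was not tested.

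Of the 1110 circRNAs, 541 had a value above 0 in at least 3 libraries and were tested, among 4271 in the table; the other 569 were not. At the study's threshold 11 were higher in TLE (2.03% of those tested; 1.26% of all) and 1 was lower (0.185%; 0.304% of all). After adjustment 0 were called, with 37 at an unadjusted p under 0.05, 31 higher and 6 lower. The values did not overlap with TLE above in 52 (9.61%; 8.94% of all) and with TLE below in 8 (1.48%; 2.11% of all). The 12 circles came from 10 hosts, and the median one had 19.5 junction reads in the 6 libraries together.

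Outside Ptpn4, the named circles past the threshold without overlap were in Strbp, Ptk2, Atrnl1 and Focad. The circle of Strbp, mmu_circ_0006137 (exons 2 to 10), had 0, 21 and 24 reads in Control and 33, 30 and 42 in TLE, with a log2 fold change of 1.85 (standard error 0.67; limma, unadjusted p = 0.0136). The size of the difference depends on the 0 in Control replicate 1. In that library the dominant circle of the gene held 76.6% of the host, against 63.0 and 63.6% in the other Control libraries. The reads of mmu_circ_0006137 in those other Control libraries also lay below those of every TLE library. The circle of Ptk2, mmu_circ_0002939, had 0 reads in each Control library and 3, 3 and 9 in TLE. Its TLE mean was 1.70-fold the mean of a floor of 3 reads in each Control library. The circle of Atrnl1, mmu_circ_0004585, had 2, 0 and 0 reads in Control and 3, 9 and 5 in TLE, 1.93-fold that floor. For the circle of Focad that was lower in TLE, mmu_circ_0007590, the Control mean was 1.68-fold the floor in TLE. The counting error of the higher group is not included in these ratios. The remaining 5 circles past the threshold, listed after their values were seen, were in 2010111I01Rik, Adgrl3, Dgki and Rims2, each with 15 reads or fewer in any library, and in Tasp1, whose dominant circle had its single 0 in Control replicate 2.

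The hosts are grouped below by lists of textbook roles, as a description without a test. The lists do not hold every gene with a role, and each host was counted in at most 1 list. Anks1b, of the postsynaptic density, was counted under membrane trafficking. Of 37 active zone and vesicle release genes, 28 were listed as hosts and 4 were hot spots (Rims2, Stxbp5l, Cadps and Erc2, with 86 circRNAs); the dominant share ranged from 25.3 to 53.2%, and 1 had a higher sum at an unadjusted p under 0.05. Of 35 postsynaptic scaffold genes 27 were hosts and 3 were hot spots (Lrrc7, Magi2 and Dlgap1, 61 circRNAs), with shares from 26.3 to 61.3%. Among 65 receptor and ion channel genes 59 were hosts but only Ryr2, the calcium release channel of the endoplasmic reticulum, was a hot spot, with 15 circRNAs and a share of 45.5%.

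Signalling enzymes contributed 5 hot spots of 105 hosts listed (among them Dgki, Ptk2, Stk39 and Pi4ka, 125 circRNAs in all), with shares from 32.2 to 47.7% and 0 sums past an unadjusted p of 0.05. Adhesion, guidance and phosphatase genes contributed 7 of 75 (Adgrb3, Lrp1b, Ptpn4, Adgrl3, Csmd1, Tenm4 and Nell2, 134 circRNAs); 6 of the 7 had a log2 fold change of the sum above 0, as had 76.8% of the hot-spot hosts and 65.3% of all hosts tested, and 2 were higher at an unadjusted p under 0.05, as were 5.29% of all. Their median was 0.46, beside 0.20 over all hosts; scaled to an equal total, 28 of the 56 hot-spot hosts were above 0. Cytoskeletal genes contributed 3 of 133 (Dtnb, Myo9a and Nav3, 52 circRNAs) and held the widest range of shares, from 29.6 to 79.1%. Membrane trafficking genes contributed 6 of 88 (Nbea, Dennd1b, Anks1b, Dennd1a, Atp9b and Lrba, 132 circRNAs), with shares from 23.7 to 53.8%.

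Chromatin, transcription and RNA genes were the largest group, with 9 hot spots of 147 hosts (Rere, R3hdm1, Stag1, Mllt10, Ash1l, Stau2, Ncor1, Ehmt1 and Strbp, 173 circRNAs). Their median dominant share was 21.3%, from 16.3% to 62.5%, where the median of all 56 hosts was 32.8%. The list of ubiquitin system genes contributed only Mycbp2, a ubiquitin ligase of axons and synapses, of 76 hosts, with a share of 55.4%. Ttc3, also a ubiquitin ligase, was not on that list, and its share was 57.2%. The other 17 hosts, with 317 circRNAs, were in none of these lists, and their shares ranged from 16.8 to 61.3%. Fmn2, a formin, and Fer, a tyrosine kinase, were among them, so the counts by role are of list members only.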

How the data were processed

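CircRNAs of the cortex of 3 Control and 3 TLE mice were analysed. According to the study's methods, reads were aligned with BWA-MEM, circRNAs were called with CIRI, and the authors normalised junction reads to SRPBM, the signal values deposited in 1 table that was given for all 6 samples; the submitters' processing notes name mm10. The values of a library were whole multiples, within 0.1 of a step, of 1 step (8.55 to 10.3 SRPBM), and the smallest value above 0 was 2 steps. A step is taken as 1 junction read, so that a circle with 1 read would be listed at 0; this is inferred from the spacing and is not stated by the authors, and all junction reads given here rest on it. Junction reads were used for depth, thinning and intervals only. Library totals were 32504 to 56516 junction reads.

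Only circRNAs with 1 host gene were used. Tests were fitted to log2(SRPBM + 17.1), the smallest value above 0, with limma 3.58.1 (R 4.3.3, empirical Bayes with trend, two-sided) over all circRNAs or hosts above 0 in at least 3 libraries, and for shares over hosts with 2 or more circRNAs and signal in all 6; p-values were adjusted by the Benjamini-Hochberg method. A fold change on this scale understates the change of low circRNAs. With 1 library per mouse, p-values measure the spread between these libraries. Shares were also compared by an exact permutation test in Python 3.11.15 (scipy 1.17.1). Exons were taken from GENCODE M21. The scripts were tested on simulated data.

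Hosts named are those with the most circRNAs (8 by the rule), the highest sums (5), the highest and lowest dominant shares (5 each), shares without overlap (up to 5 in each direction), the smallest p of the sum or share (3 in each direction), the most circles at 1 start or end (5 each), circles past the threshold without overlap (up to 5 in each direction), and Ptpn4, which the study follows up. The shares of Dgki and Cadps, beyond the 5 lower ones, are added after their values were seen. Some results are not reported here, and 1 host is not drawn by name. The members and lists were chosen with earlier results of these data known.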

Additional observations from a re-analysis of the deposited data

How the results depend on the processing

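No share of a dominant circle and, with 1 exception, no host sum of the 56 hosts had an adjusted p under 0.05 under any alternative run (limma; 0 to 1 when leaving out 1 library). The exception was Adgrb3 without TLE replicate 1 (log2 fold change 0.99, adjusted p = 0.0285), where 21 hosts in place of 6 were higher without adjustment. The 12 circles past the threshold became 30 (24 higher, 6 lower) at a log2 fold change of 1 and 24 (17 higher, 7 lower) with the pseudocount at 8.55 SRPBM. Leaving out 1 library gave 9 to 19, with 19 (19 higher, 0 lower) without Control replicate 3 and 9 (4 higher, 5 lower) without TLE replicate 3. With libraries rescaled 8 were higher and 2 lower, and at a pseudocount of 1 SRPBM 10 were higher and 6 lower. The median dominant share was 27.0% in hosts with 20 or more circRNAs and, an alternative chosen after seeing the data, 56.4% from circles in all 6 libraries. Starts were shared by 72.3% and ends by 66.3% of circles in at least 2 libraries, and by 85.1% and 79.5% in hosts with 20 or more. The difference in detected circles, 57, was 9.83 without TLE replicate 3 and 103 without TLE replicate 1. The direction reversed for the share of Nav3 (-0.70) and Tasp1 (-0.50) with the dominant circle taken from Control alone, and of Tasp1 (-0.18) with circles in all 6 libraries. Leaving out 1 library moved the sum of Nbea from -0.35 to 0.065 and that of Mllt10 from -0.73 to 0.33, both above 0 without TLE replicate 1. The cause of these changes was not tested. With the replicate block, 12 circles, 0 shares and 0 sums were called; the same-numbered libraries did not deviate together (correlations 0.019, 0.014 and 0.010), so the numbers do not pair them. The planned count models were not run, since the deposited values are normalised and the reads inferred from their spacing were not accepted as counts. Shares rest on a median of 69 junction reads per host and library.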

Other observations

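Single values at 0 beside well-read libraries were seen in other circles of the hot-spot hosts too. Where a circle had a mean of at least 10 junction reads over the other 5 libraries, 9 of 789 library values of hot-spot circles were at 0 (1.14%), against 1.19% for the circles of the other single hosts and 1.29% for the whole table. The circle of Mlip, mmu_circ_0010745, had 13, 22 and 25 junction reads in Control and 0, 28 and 32 in TLE. That of Ash1l, mmu_circ_0006945, had 16, 10 and 25 in Control and 15, 0 and 28 in TLE. In Stag1, mmu_circ_0010172 had 8, 7 and 16 in Control and 0, 16 and 20 in TLE. The zeros fell in both groups. The cause was not tested.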
